A study of Mus musculus with 20 samples.

Results

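Crystallin transcripts were followed through freshly sorted cells of the neonatal mouse subventricular zone. The 8 genes described are Crygn, Cryba4, Crybb1, Crygs, Cryab, Crym, Cryz and Cryl1, which were picked by name out of the 45705 genes of the expression table. They were picked with their levels already known: the high Crygn values of the neural stem cells (NSCs) and the high Cryba4 and Crybb1 values of the microglia-rich populations chose those 3 genes, so these values are given below as a description without a test. All 8 genes passed the filter on low values, but Crygs did so with exactly 4 libraries at 1 RPKM or more (RPKM, reads counted per unit of gene length and of sequencing depth). Cells came from the periventricular tissue of Swiss Webster pups at postnatal day 5, whole litters of males and females being pooled, and no animal was treated or carried a transgene. They were sorted by the surface antigens CD133, LeX (CD15), CD140a and NG2 into NSCs, which carry CD133 and LeX but neither NG2 nor CD140a, and into 4 progenitor populations named for what they form in culture: BNAP/GRP1 (bipotential neuronal-astrocytic and glial-restricted progenitors), GRP2/MP3 (glial-restricted and multipotential progenitors), GRP3 (glial-restricted progenitors) and PFMP (multipotential progenitors that respond to PDGF and FGF). Each population had 4 libraries, 1 in each of batches 1 to 4, and libraries carry the name of their population followed by the batch number (NSC 3, for example).

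Crystallins were named as the abundant soluble proteins of the eye lens. The alpha crystallins are small heat shock proteins that act as chaperones, whereas the beta and gamma crystallins share a fold built of Greek key motifs and are mainly known as structural lens proteins. A further group, the enzyme crystallins, are metabolic enzymes that some animals also use in the lens: Crym is an NADPH-dependent ketimine reductase that binds thyroid hormone, Cryz is a quinone oxidoreductase, and Cryl1 is a gulonate dehydrogenase of the uronate cycle. Cryba4 and Crybb1 are also known as transcripts of microglia in the young mouse brain, and Cryab is widely made by glia and muscle.

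In these libraries the crystallins did not share a pattern. Crygn measured 359 to 7890 RPKM in NSC libraries and at most 129 RPKM elsewhere, Cryba4 and Crybb1 exceeded 100 RPKM in the same 4 libraries of BNAP/GRP1 and GRP2/MP3, Crym was lower than the NSC library of its batch in all 16 progenitor libraries, Cryl1 ran mostly the other way, and Cryab, Cryz and Crygs had no population that stood apart. The plot of the members by population shows every value.

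**Figure D1:**
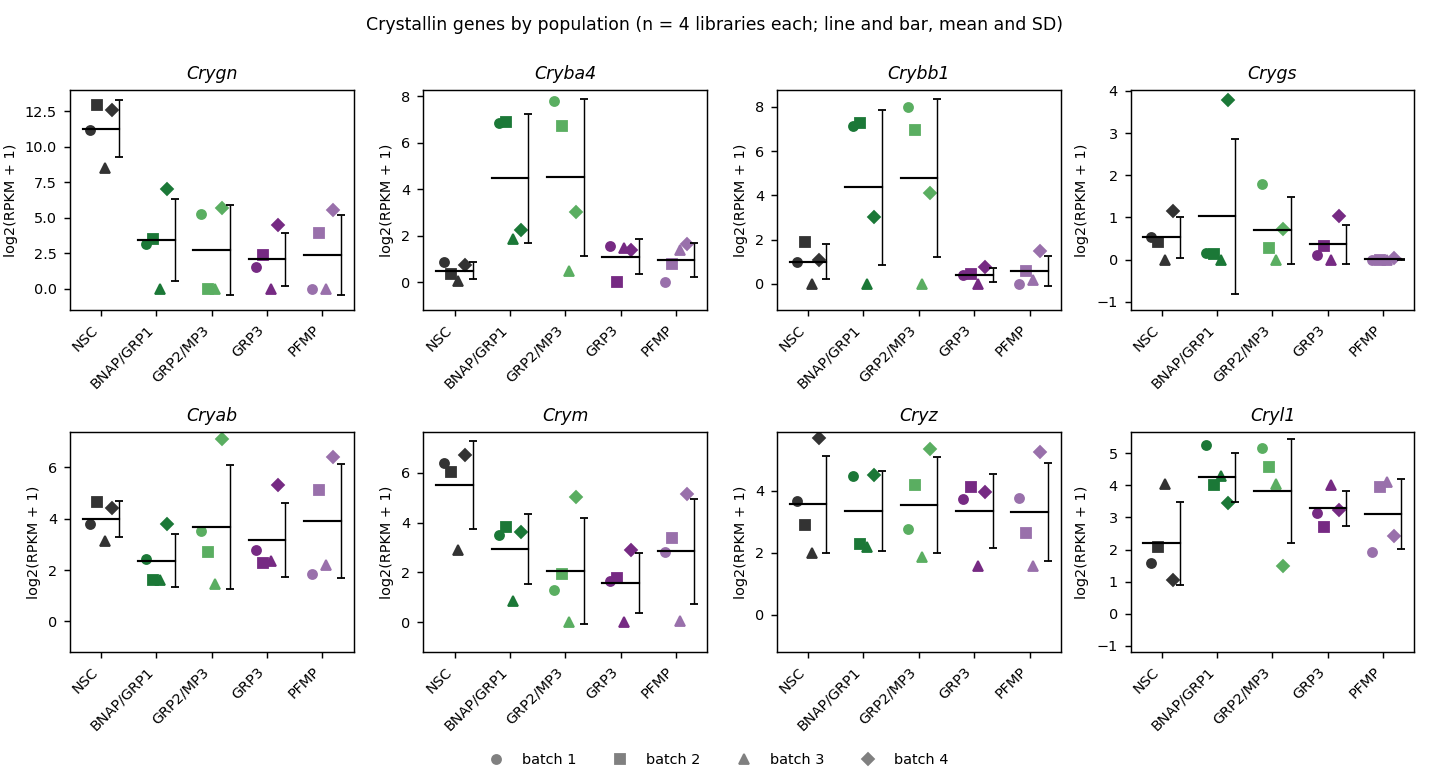
Level of each of the 8 crystallin genes as log2(RPKM + 1) on the vertical axis, by population on the horizontal axis; each point is a library, its shape gives the batch, and the line and bar give the mean and SD of 4 libraries. All 4 NSC points of Crygn lie above every progenitor point, and Cryba4 and Crybb1 are high in batches 1 and 2 of BNAP/GRP1 and GRP2/MP3 and low in batch 3.

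Crygn, Cryba4 and Crybb1 all lie on mouse chromosome 5. On GRCm38, as annotated by GENCODE vM21, Crygn spans chr5:24751003-24758008 on the minus strand, with up to 4 exons, between Wdr86 and Rheb. Cryba4 (chr5:112246493-112252518, minus strand) and Crybb1 (chr5:112255815-112269585, plus strand) have up to 6 exons each and stand head to head, with 3297 bases between their start sites and no annotated protein-coding gene between them. RefSeq promoters (GRCm38.p6), running from 250 bases before the start to 50 bases after it, were on hand for 6 of the 8 members. The 3 below are shown because these genes carry the contrast between populations and because the last 2 belong to neighbours that were high in the same libraries. They are written 5′ to 3′ on the strand of the gene, and capitals mark matches on either strand to 5 short motifs: the TATA box (TATAAA or TATATA), the core bound by MAF factors (TGCTGA), the core bound by RFX factors (GTTGCC), a forkhead site (GTAAACA) and the core bound by PU.1 (GAGGAA). The motifs were chosen with the sequences known, and no match overlapped another.
Crygn, chr5:24757799-24758098, minus strand: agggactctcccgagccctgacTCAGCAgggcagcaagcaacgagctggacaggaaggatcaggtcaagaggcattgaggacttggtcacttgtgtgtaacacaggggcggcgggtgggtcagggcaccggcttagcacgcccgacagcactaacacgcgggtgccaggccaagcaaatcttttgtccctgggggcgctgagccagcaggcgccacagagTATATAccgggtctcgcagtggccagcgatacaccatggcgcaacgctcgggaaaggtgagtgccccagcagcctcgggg
Cryba4, chr5:112252469-112252768, minus strand: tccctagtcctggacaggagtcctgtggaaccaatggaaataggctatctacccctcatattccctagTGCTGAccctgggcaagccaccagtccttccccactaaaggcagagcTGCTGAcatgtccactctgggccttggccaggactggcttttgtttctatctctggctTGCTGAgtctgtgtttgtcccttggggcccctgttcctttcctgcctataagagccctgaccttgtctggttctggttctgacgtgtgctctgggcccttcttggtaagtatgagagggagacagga
Crybb1, chr5:112255570-112255869, plus strand: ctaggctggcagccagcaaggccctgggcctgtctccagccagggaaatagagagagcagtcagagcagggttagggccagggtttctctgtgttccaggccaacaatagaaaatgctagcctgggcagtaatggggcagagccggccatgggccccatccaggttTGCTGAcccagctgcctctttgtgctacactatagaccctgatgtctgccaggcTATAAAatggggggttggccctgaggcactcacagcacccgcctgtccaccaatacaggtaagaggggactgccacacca

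Positions count from the RefSeq start, -1 being the base before it. The Crygn window holds a TATATA at -30 and a MAF core on the opposite strand at -228. The RefSeq start lies 160 bases inside the GENCODE gene, so the window is not centred on the first annotated base. The Cryba4 window holds the MAF core 3 times, at -182, -135 and -77, and neither TATAAA nor TATATA. It does hold the similar TATAAG, which was not among the letters searched, so it is not called free of a TATA box. The Crybb1 window holds the MAF core at -84 and a TATAAA at -30. Among the 32851 RefSeq promoters of the same length, 19.5% held the MAF core at least once and 17.1% a TATA box. Promoters with the MAF core 3 times were not counted, so how unusual the Cryba4 window is cannot be said. The RFX core (12.5% of promoters), the forkhead site (3.65%) and the PU.1 core (28.3%) do not occur in these 3 windows. Of the other members with a promoter, Crygs holds a TATAAA and a MAF core, and Cryz and Cryl1 hold none of the 5 motifs.

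Libraries differed in ways the populations do not set. Depth, read from the steps in which low values move, was lowest in BNAP/GRP1 4, at 0.0395 of the depth of BNAP/GRP1 1, and highest in BNAP/GRP1 3, at 1.41 of it. The median gene stood at 8.30 RPKM in BNAP/GRP1 4 and at most at 2.02 RPKM in the other libraries. The 5 libraries of batch 3 resembled each other more than their populations (Pearson's r of 0.94 to 0.97 across genes), and the summed level of 8 markers of lung epithelium and alveolar macrophages, cells that the dissected tissue lacks, was 1864 to 2118 RPKM in all 5, against at most 100.4 RPKM in any other library. Main differences are therefore also given without batch 3, and without BNAP/GRP1 4 where that library moves them. In bulk libraries like these, fewer cells of a type and less RNA per cell cannot be told apart. The labels were compared with marker lists. The sum of 9 NSC and astroglial markers was 272 to 5963 RPKM in NSC and 153 to 14929 RPKM in the progenitors, so it did not set NSC apart. Without batch 3 it was 3841 to 5963 RPKM in NSC and 348 to 14929 RPKM in the progenitors. That sum was mostly Fabp7. Taken singly, Slc1a3, Thbs4, Aqp4, Sox9 and Gja1 averaged highest in NSC, and Gfap, Fabp7, Hes5 and Aldoc did not. The sum of 10 ependymal markers, which mark another cell type than the NSC label names, was 1539 to 15590 RPKM in NSC and 1.82 to 544 RPKM in the progenitors. The sum of 12 microglia markers, batch 3 left out, was 155 to 4867 RPKM in BNAP/GRP1 and GRP2/MP3 and at most 121 RPKM in the rest, and 9 markers of oligodendrocyte progenitor cells (OPCs) summed to 440 to 3698 RPKM in GRP3 and PFMP and at most 219 RPKM elsewhere, again without batch 3. BNAP/GRP1 and GRP2/MP3 are called the microglia-rich pair, and GRP3 and PFMP the OPC-like pair, on these sums alone.

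Crygn, a member of the gamma crystallins that stands apart from the lens gamma crystallins in sequence, was far higher in NSC libraries than in progenitor libraries. Its level was 2282, 7890, 359 and 6068 RPKM in NSC batches 1 to 4. BNAP/GRP1 gave 7.78, 10.7, 0 and 129 RPKM, and GRP2/MP3 gave 37.7, 0, 0 and 51.1 RPKM. GRP3 gave 1.88, 4.17, 0 and 21.5 RPKM, and PFMP gave 0, 14.3, 0 and 46.6 RPKM. The lowest NSC value thus exceeded the highest progenitor value, and the progenitor populations overlapped among themselves throughout. Each NSC value rests on many reads (1336, 10722, 980 and 3563 reads recovered from the steps of the values), whereas the progenitor values rest on at most 55 reads, apart from 171 reads in PFMP 4. A value of 0 allows up to 3 reads, which is 0.572 to 6.84 RPKM for Crygn in the 6 libraries concerned.

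On the log2(RPKM + 1) scale the mean of Crygn differed from NSC by -7.86 (BNAP/GRP1), -8.55 (GRP2/MP3), -9.19 (GRP3) and -8.91 (PFMP) (SE 1.62 for each). The share of all genes tested that were lower in that progenitor at an adjusted p under 0.05 was 0.76%, 1.12%, 1.04% and 1.14%, which is background only, since these differences chose the gene. Leaving out any single library or any batch kept the differences between -6.72 and -10.13, and without batch 3 they were -7.66, -8.56, -9.43 and -9.05. Between progenitors the gene was not chosen, and there its level was tested: the microglia-rich pair exceeded the OPC-like pair by 0.85 (SE 1.15, adjusted p = 0.895), and the moderated F test among the 4 progenitors gave an adjusted p of 1. Without the block none of the 27614 genes tested passed either comparison (0% called; the replicate block gave 398 calls between the pairs and left the Crygn difference at an adjusted p of 0.563), while 1219 and 380 genes had an unadjusted p under 0.05.

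The RPKM of Crygn stands on a gene length unlike that of the other members. A single read was worth 12.5 times as many RPKM for Crygn as for Cryba4 in the same library, although their longest annotated transcripts are of similar length, 768 and 808 bases, and the shortest Crygn transcript has 221 bases. Read value times annotated length was larger for Crygn than for 99.8% of the 1697 protein-coding genes for which it could be solved. The length the authors used is not given in the sources used here. With Crygn set to the read value of Cryba4, which was added once the data had been seen, the NSC values became 182, 630, 28.6 and 484 RPKM, its rank among all genes of the library went from 69, 26, 363 and 12 to 790, 335, 3280 and 225, and the differences from NSC became -6.39, -6.57, -7.14 and -6.82. Its level is therefore not ranked here against those of other members.

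Across the 20 libraries the genes most like Crygn in log2(RPKM + 1) were Ccdc173, Mia, Capsl, Fam161a and Gm973, with Pearson's r from 0.956 to 0.945. The sum of the 10 ependymal markers, among them Foxj1, the master regulator of motile cilia, and Ccdc153 and Tmem212, moved with Crygn as well (r = 0.93, Spearman's rho = 0.86, 20 libraries). Crygn was chosen for its high NSC values, and the ependymal sum is also high in NSC. That choice largely set these correlations over 20 libraries, those of the nearest genes included, which are a description only. In the 16 progenitor libraries alone r was 0.74, which is not free of batch. Progenitor libraries of batch 3 had Crygn at 0 RPKM with ependymal sums of 3.77 to 6.50 RPKM. Those of batch 4 had Crygn at 21.5 to 129 RPKM with sums of 59.8 to 544 RPKM. Within NSC, Crygn and the ependymal sum had the same order: both were lowest in batch 3 (1539 RPKM for the sum) and highest in batch 2 (15590 RPKM). In GRP2/MP3 4 the ependymal sum was 544 RPKM with Crygn at 51.1 RPKM. Of the 10 markers, Rarres2 had the largest mean in GRP2/MP3, 115 RPKM (SD 214), and Tmem212 the next, 14.9 RPKM. Foxj1 averaged 0.684 RPKM there. What part these markers have in the Crygn result was not tested.

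**Figure D2:**
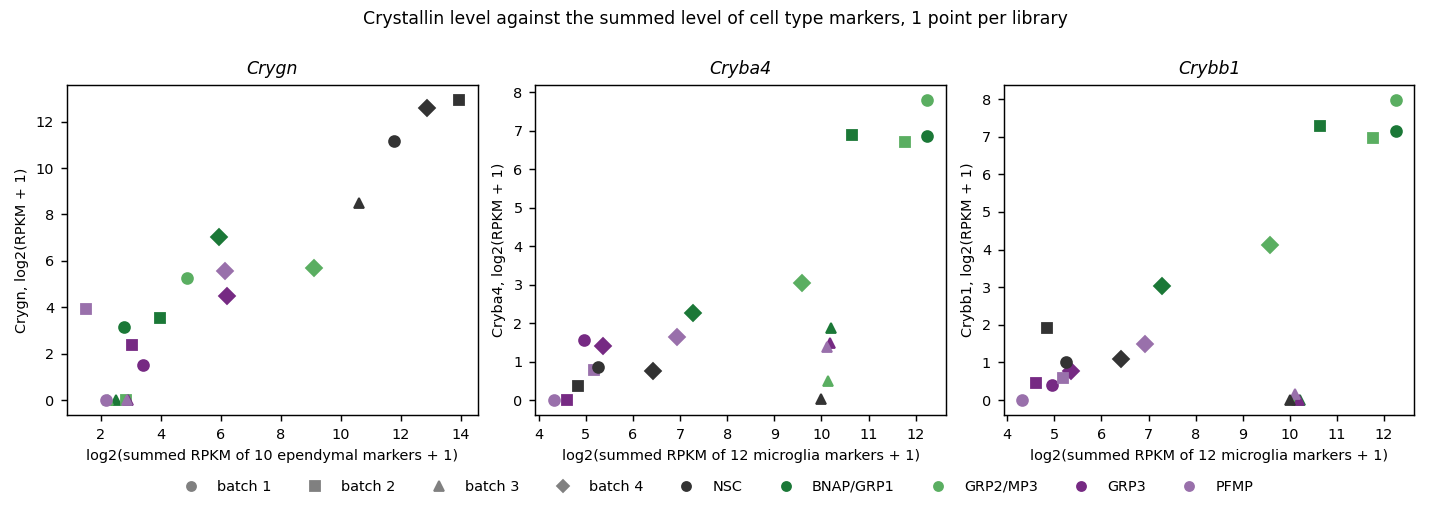
Level of Crygn, Cryba4 and Crybb1 as log2(RPKM + 1) against the summed RPKM of cell type markers on a log2 scale, with 1 point per library, coloured by population and shaped by batch. Crygn climbs with 10 ependymal markers (r = 0.93), and Cryba4 and Crybb1 climb with 12 microglia markers except in the 5 libraries of batch 3. Each gene was chosen for the populations in which its markers are also high.

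Cryba4, an acidic beta crystallin, and Crybb1, a basic beta crystallin, were high in the microglia-rich pair. Cryba4 measured 116, 118, 2.68 and 3.80 RPKM in BNAP/GRP1 batches 1 to 4 and 223, 104, 0.418 and 7.26 RPKM in GRP2/MP3. It stayed between 0 and 2.13 RPKM in GRP3 and PFMP and between 0.0292 and 0.818 RPKM in NSC. Both high populations were therefore high in batches 1 and 2, higher than the other populations in batch 4, and in batch 3 within or near the range of the others. The 3.80 RPKM of BNAP/GRP1 4 stands on 7 reads, where 3 reads are 1.63 RPKM, and its lead over the 2.13 RPKM of PFMP 4 is worth about 3 reads. That value also lay under the median gene of BNAP/GRP1 4, 8.30 RPKM.

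Crybb1 measured 141, 155, 0 and 7.14 RPKM in BNAP/GRP1 and 252, 123, 0 and 16.4 RPKM in GRP2/MP3. The 7.14 RPKM of BNAP/GRP1 4 rests on 16 reads and lay under that library's median gene of 8.30 RPKM. Crybb1 stayed at or under 1.82 RPKM in GRP3 and PFMP and at or under 2.75 RPKM in NSC. In batch 3 it was listed at 0 in NSC, BNAP/GRP1, GRP2/MP3 and GRP3, where 3 reads would have been 0.0375 to 0.0720 RPKM, and at 0.126 RPKM in PFMP. The populations followed the order BNAP/GRP1, GRP2/MP3, GRP3, PFMP and NSC by median for Cryba4, and BNAP/GRP1, GRP2/MP3, NSC, GRP3 and PFMP for Crybb1, and neighbours overlapped in both orders.

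Between the pairs, the mean log2(RPKM + 1) of Cryba4 was 3.47 higher in the microglia-rich pair than in the OPC-like pair, and that of Crybb1 4.08 higher. Without batch 3 these differences were 4.70 and 5.47, and over all single libraries and batches left out they ranged from 2.44 to 4.70 and from 2.98 to 5.47. Relative to NSC, Cryba4 differed by 3.97 (BNAP/GRP1), 4.01 (GRP2/MP3), 0.60 (GRP3) and 0.45 (PFMP). Crybb1 differed by 3.36, 3.77, -0.60 and -0.43 in the same order, all against the same NSC libraries. Without batch 3 the values were 4.68, 5.19, 0.33 and 0.15 for Cryba4 and 4.49, 5.02, -0.80 and -0.63 for Crybb1. Single libraries moved them further: in GRP2/MP3, Cryba4 ran from 2.91 without GRP2/MP3 1 to 5.35 without GRP2/MP3 3 and Crybb1 from 2.69 to 5.36 without the same libraries, and in BNAP/GRP1, Crybb1 ran from 2.39 without BNAP/GRP1 2 to 4.82 without BNAP/GRP1 3. No gene passed the test between the pairs without the block (0% called in either direction). With the replicate block 0.999% of genes were called higher and 0.442% lower, and without batch 3 the calls came to 536 genes. The values of Cryba4 and Crybb1 were not tested, since they chose the genes.

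The neighbours had similar levels where both were high. In the 6 libraries of the microglia-rich pair with both genes above 0, Crybb1 stood at 1.13 to 2.26 times the RPKM of Cryba4, and over 20 libraries their r was 0.96 (rho = 0.68). The choice of both genes as high in these populations largely set that r. Where both were low the ratio ran from 0.0792 in PFMP 3 to 9.37 in NSC 2, and in batch 3 Cryba4 had 176 reads in BNAP/GRP1 and 76 in GRP3 with Crybb1 at 0 reads in both. Tpst2, the next protein-coding gene beyond Crybb1, a tyrosylprotein sulfotransferase, had population means of at most 20.2 RPKM, and Gm26897, beyond Cryba4, was listed at 0 throughout. The neighbours of Crygn did not follow it either: Wdr86 averaged 0.712 RPKM and Rheb, a small GTPase upstream of mTOR, 151 RPKM in NSC, against 0.194 to 5.12 RPKM and 74.7 to 145 RPKM in the progenitors.

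By the same measure, the genes most like Cryba4 were Fcrls, Crybb1, Cx3cr1, Tmem119 and Siglech (r from 0.959 to 0.917), and those most like Crybb1 were Cx3cr1, Fcrls, Cryba4, Siglech and G530012D18Rik (r from 0.961 to 0.940). All but the crystallins and G530012D18Rik belong to the list of microglia markers. The points share libraries, depth and batch, and the same 4 libraries hold the values above 100 RPKM. Both genes were chosen for being high in the microglia-rich pair, which is named by these markers. That choice largely set their r with such markers, here and below, and these values are a description only. The sum of 12 microglia markers moved less closely with Cryba4 (r = 0.71) and Crybb1 (r = 0.59) over all libraries, and more closely over the 15 outside batch 3 (r = 0.96 and 0.97). In batch 3 the sum was 1023 to 1185 RPKM in all 5 populations, NSC included. There, markers shared with other macrophages were high, with C1qa at 518 to 589 RPKM and Trem2 at 275 to 334 RPKM, while those typical of microglia were near 0, with Cx3cr1 at 0.355 to 1.18 RPKM, Siglech at 0.465 to 0.959 RPKM and Sall1 at 0 to 0.385 RPKM. Outside batch 3, the microglia-rich pair had Cx3cr1 at 10.7 to 231 RPKM and Siglech at 13.5 to 54.6 RPKM. The part of these markers in the Cryba4 and Crybb1 levels was not tested.

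Of the enzyme crystallins, Crym was highest in NSC. NSC measured 82.8, 63.9, 6.38 and 103 RPKM, BNAP/GRP1 10.3, 13.1, 0.794 and 11.3 RPKM, and GRP2/MP3 1.48, 2.80, 0 and 31.3 RPKM. GRP3 measured 2.14, 2.405, 0 and 6.56 RPKM, and PFMP 6.06, 9.43, 0.0384 and 34.1 RPKM. NSC was the highest population in every batch, but NSC 3 lay within the range of the progenitors of other batches, so the groups overlapped.

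The mean log2(RPKM + 1) of Crym differed from NSC by -2.55 (BNAP/GRP1), -3.44 (GRP2/MP3), -3.92 (GRP3) and -2.65 (PFMP). Without a batch term none of these differences passed (limma, SE 1.14, adjusted p = 0.787, 0.272, 0.155 and 0.672). With the batch as replicate block the same differences passed in every progenitor (SE 0.53, adjusted p = 0.00991, 0.000475, 0.000139 and 0.00612), while 2.02%, 2.91%, 2.33% and 2.61% of all genes tested were called lower with the block. With batch 3 left out and no block, GRP2/MP3 (-3.62, adjusted p = 0.042) and GRP3 (-4.26, adjusted p = 0.0149) passed, and BNAP/GRP1 (-2.72, adjusted p = 0.191) and PFMP (-2.59, adjusted p = 0.202) did not. Each progenitor library had less Crym than its batch partner among the NSCs, a pattern over 16 libraries that 3.28% of the genes tested shared. Among the 4 progenitors no difference passed (F test, adjusted p = 1).

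The genes most like Crym over the 20 libraries were Aqp4, the water channel of astrocyte and ependymal membranes, Cbs, which makes cystathionine, and Sfrp1, a secreted Wnt antagonist (r = 0.94, 0.93 and 0.92). The ependymal sum moved with Crym at r = 0.77 and the sum of 9 NSC and astroglial markers at r = 0.60, which became 0.19 over the 15 libraries outside batch 3. Those astroglial markers summed to 272 to 5963 RPKM in NSC and 153 to 14929 RPKM in the progenitors, so the populations overlapped in that sum. The sum was mostly Fabp7, whose mean over the libraries was 4110 RPKM, beside 258 RPKM for Aldoc, the next. Fabp7 averaged 2940 RPKM in NSC and 7100 RPKM in GRP3. Slc1a3, Thbs4, Aqp4, Sox9 and Gja1 averaged highest in NSC (Aqp4 at 20.4 RPKM, beside 2.46 to 8.51 RPKM in the progenitors). Gfap, Fabp7, Hes5 and Aldoc did not. The part of these markers in the Crym result was not tested. Of the 13 measured thyroid hormone genes on the list (receptors, deiodinases, transporters and response genes), 0 passed in any comparison without the block. With it, Slco1c1, a thyroxine transporter, was lower in GRP3 (-3.36, adjusted p with the block = 0.0123, with 2.33% of genes called lower) and Rxrg, a retinoid X receptor, higher in PFMP (2.10, adjusted p = 0.048, with 0.185% of genes called higher). Thra, the most abundant gene of the list by mean RPKM, did not pass in any comparison.

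**Figure D3:**
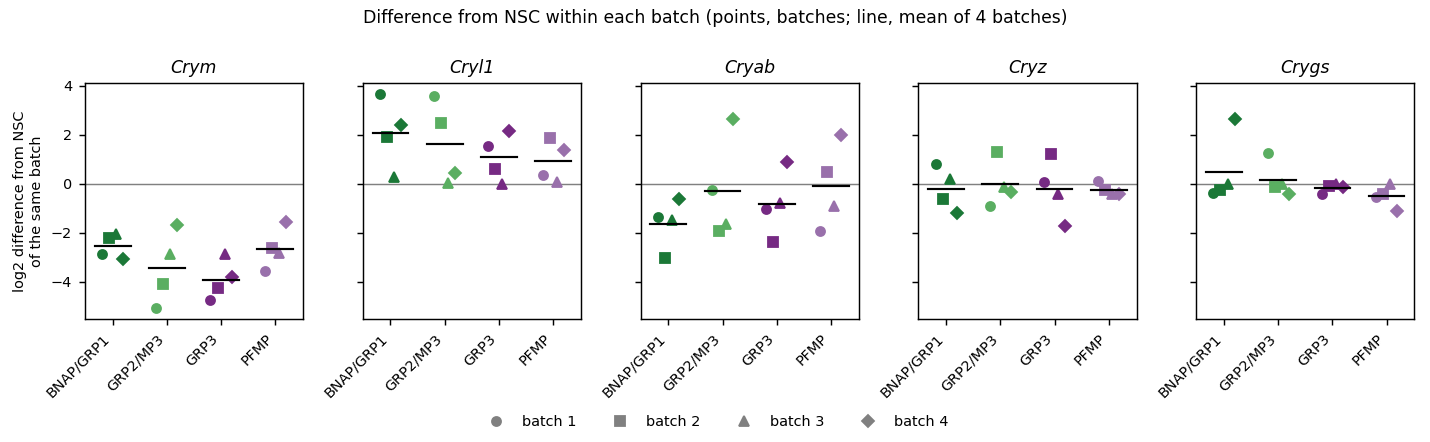
Difference in log2(RPKM + 1) between each progenitor library and the NSC library of the same batch, for the 5 members that were tested against NSC; points are batches and lines the mean of 4 batches. All 16 points of Crym are below 0, 15 of 16 for Cryl1 are above 0, and Cryab, Cryz and Crygs fall on both sides.

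Cryl1, the gulonate dehydrogenase, was low in NSC except in batch 3. NSC measured 2.00, 3.26, 15.3 and 1.09 RPKM, BNAP/GRP1 37.0, 15.0, 18.7 and 9.88 RPKM, and GRP2/MP3 34.6, 22.9, 15.6 and 1.81 RPKM. GRP3 measured 7.85, 5.57, 15.2 and 8.43 RPKM, and PFMP 2.83, 14.5, 16.1 and 4.38 RPKM. The 5 libraries of batch 3 were nearly level, at 15.2 to 18.7 RPKM, and the gap to NSC came from the other batches. Compared batch by batch with NSC, Cryl1 was higher in 4 of 4 batches for BNAP/GRP1, GRP2/MP3 and PFMP and in 3 of 4 for GRP3. Of all genes tested, 9.35%, 4.76% and 5.75% were higher in every batch of the first 3 populations.

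The differences from NSC were 2.06, 1.63, 1.09 and 0.91 on the log2(RPKM + 1) scale (SE 0.78), and none passed (adjusted p = 0.563, 0.863, 1 and 1), with 0%, 0%, 0.0109% and 0.00362% of genes called higher. With the replicate block the adjusted p for BNAP/GRP1 was 0.117, with 0.0652%, 0.174%, 0.275% and 0.185% of genes called higher in the 4 progenitors, and without batch 3 the 4 differences were 2.65, 2.16, 1.45 and 1.196 (adjusted p = 0.222, 0.392, 0.850 and 0.985). The nearest genes by correlation were Cela1, Mylip and Flcn (r = 0.90, 0.88 and 0.88), and the microglia sum moved with Cryl1 at r = 0.71 over 20 libraries and 0.66 outside batch 3; its part in the Cryl1 level was not tested. Of the 7 measured genes of the uronate cycle and its branches, 1 passed: Sord, sorbitol dehydrogenase, was lower in GRP3 (-2.15, SE 0.51, adjusted p = 0.0428) and PFMP (-2.41, adjusted p = 0.0171), where 1.04% and 1.14% of all genes tested were called lower. With the block Xylb, a xylulokinase, was also lower in GRP2/MP3, GRP3 and PFMP (-2.09, -2.08 and -2.15, adjusted p = 0.00943, 0.0109 and 0.00789), beside 2.91%, 2.33% and 2.61% of all genes. The most abundant gene of the list was Akr1a1, an aldehyde reductase, which did not pass in any comparison.

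Cryz, the quinone oxidoreductase, was present in all 20 libraries with no lead in any population. The NSC mean was 17.9 ± 22.0 RPKM (SD, n = 4), beside 12.5 ± 10.2 RPKM for BNAP/GRP1 and 16.2 ± 16.6 RPKM for GRP2/MP3. GRP3 averaged 11.3 ± 6.42 RPKM and PFMP 14.3 ± 16.0 RPKM. All neighbouring populations overlapped, and the differences from NSC lay between -0.25 and -0.02 (SE 0.95, adjusted p from 0.947 to 1). The spread was between batches: batch 3 gave 1.99 to 3.51 RPKM in every population and batch 4 gave 14.4 to 50.5 RPKM. Cryzl1, a related gene on the list, averaged 109 ± 67.1 RPKM in NSC and 26.3 to 50.3 RPKM in the progenitors, and did not pass in any comparison (adjusted p from 0.635 to 1). The reads behind Cryz could not be recovered, and its start overlaps that of Tyw3 on the opposite strand.

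Cryab, the alpha B crystallin chaperone, was above 1 RPKM in all 20 libraries. NSC measured 12.7, 23.9, 7.65 and 20.6 RPKM, and BNAP/GRP1 4.39, 2.03, 2.07 and 12.9 RPKM. GRP2/MP3 measured 10.4, 5.45, 1.74 and 135 RPKM, GRP3 5.80, 3.85, 4.08 and 38.8 RPKM, and PFMP 2.61, 34.0, 3.63 and 83.9 RPKM. In each progenitor population the highest value was that of batch 4. BNAP/GRP1 was below the NSC library in all 4 batches, as were 7.68% of all genes (-1.63, SE 1.10, adjusted p = 0.866, with the block 0.296). Without BNAP/GRP1 4 that difference was -2.11 and without batch 3 it was -1.67, and the other differences were -0.30, -0.81 and -0.09 (adjusted p = 1 for each). Without batch 3 these became 0.15, -0.83 and 0.18. In GRP2/MP3 4, where Cryab was highest, 7 pericyte markers summed to 7337 RPKM, against 124 to 509 RPKM in the other GRP2/MP3 libraries, and without that library the difference in GRP2/MP3 became -1.44. In PFMP 4 (83.9 RPKM) and GRP3 4 (38.8 RPKM), where Cryab was also high, the pericyte sum was 46.9 and 86.6 RPKM. Over 20 libraries Cryab followed the pericyte sum at r = 0.28 and the ependymal sum at r = 0.52 (0.76 in the 16 progenitor libraries). The part of these markers was not tested. The genes most like Cryab were Zcchc17, Gnal and Gm15860 (r = 0.91, 0.88 and 0.87).

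Cryab overlaps Hspb2, a small heat shock protein gene on the opposite strand, with 1029 bases between their start sites on chromosome 9. Whether the counting used strand is not given in the sources used here, so reads of the overlap could be shared. Hspb2 averaged 0.0617 to 4.55 RPKM over the populations and reached 12.99 RPKM in GRP2/MP3 4, the library that also led in Cryab. Of the 7 small heat shock protein genes on the list, 5 were measured and 0 passed without the block. With the block, Hspb8, a partner of BAG3 in protein quality control, was lower in PFMP (-2.11, adjusted p = 0.0472), as were 2.61% of all genes tested. The most abundant of the list, Hspb1, did not pass.

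Crygs, a gamma crystallin of the lens, was barely detected. It reached 1 RPKM in BNAP/GRP1 4 (12.8 RPKM), GRP2/MP3 1 (2.48), NSC 4 (1.22) and GRP3 4 (1.05), and was listed at 0 in 7 libraries. The values in NSC 4 and GRP3 4 lay under the median gene of their own libraries (1.61 and 2.02 RPKM). The value in BNAP/GRP1 4 rests on 21 reads in the shallowest library. In 13 libraries Crygs was at or under the median of all genes, which itself was 0 in 6 libraries. The differences from NSC were 0.50, 0.17, -0.16 and -0.52 (SE 0.65, adjusted p = 0.866, 1, 1 and 1), and without BNAP/GRP1 4 the first became -0.42. Its nearest genes, Gm26895, Gm7654 and Olfr826 (r = 0.98, 0.98 and 0.97), are 2 predicted genes and an olfactory receptor.

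Most other lens crystallins were near 0 in most libraries, while Cryzl1 (above) and Crybg3 were widely present. The table holds 21 genes of the alpha, beta, gamma, beta-gamma domain and enzyme crystallin lists, 8 of them the members, and 16 passed the filter. The 11 further alpha, beta and gamma crystallins known from the lens (Cryaa, Cryba1, Cryba2, Crybb2, Crybb3, and Cryga to Crygf) all had their highest value in BNAP/GRP1 4, from 2.09 to 28.2 RPKM, beside a median gene of 8.30 RPKM in that library. Outside it the highest value of any was 11.6 RPKM, for Crybb3 in BNAP/GRP1 2. Cryga to Crygf are close copies of each other, so reads may have been split among them. Of these 11 genes 6 passed the filter, and none passed a comparison. Crybg3, a large protein with the beta-gamma fold, averaged 2.03 ± 1.19 RPKM in NSC and 3.51 to 8.33 RPKM in the progenitors. Its differences from NSC were 1.38, 1.52, 0.97 and 0.64 (SE 0.57), none of which passed (adjusted p from 0.431 to 1).

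**Figure D4:**
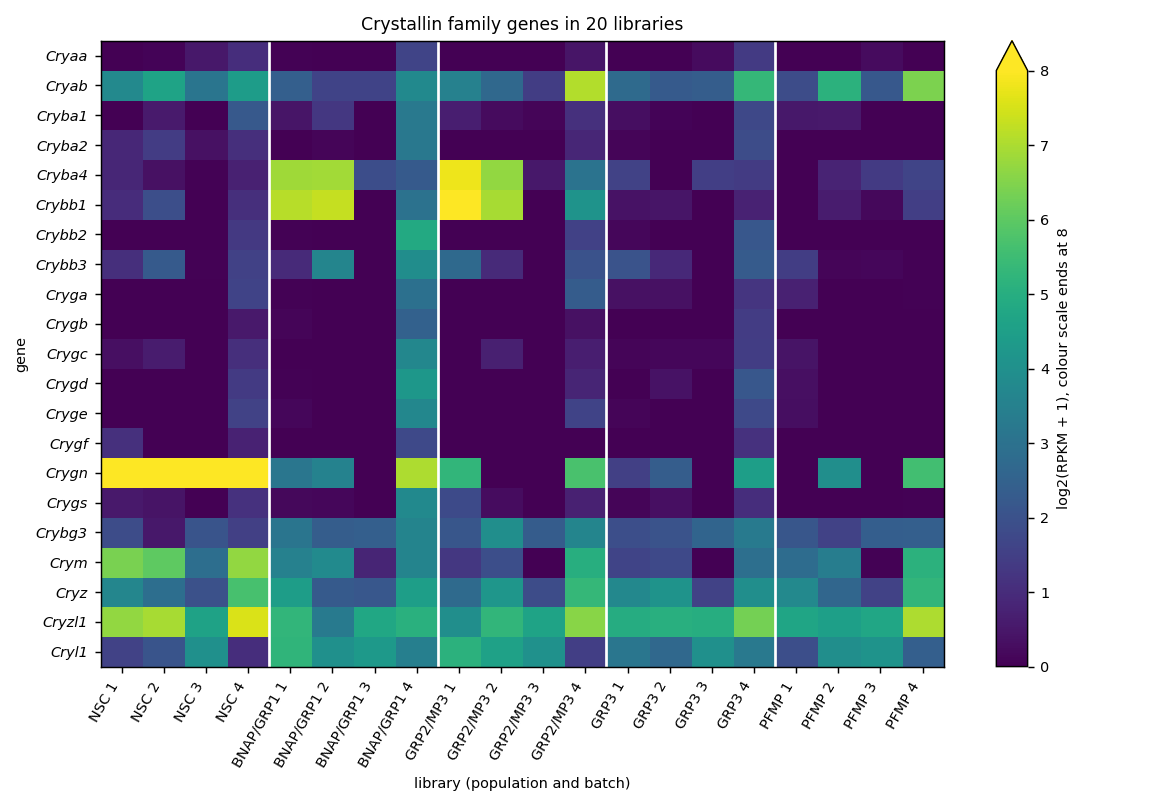
Level of 21 crystallin family genes (rows) in 20 libraries (columns, ordered by population and batch), as log2(RPKM + 1) in colour, with the scale ending at 8. Crygn fills the 4 NSC columns, Cryba4 and Crybb1 light up together in batches 1 and 2 of BNAP/GRP1 and GRP2/MP3, and the lens genes show mainly in BNAP/GRP1 4.

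Other genes of the lens programme were measured for comparison. Of 12 lens fibre genes on the list (membrane channels, beaded filament proteins and the like), 5 passed the filter and 0 passed a comparison. The most abundant was Bfsp2, a beaded filament protein, which peaked at 40.1 RPKM in PFMP 4. Of the 9 transcription regulators of the lens, 8 were measured and 0 passed without the block. Their median difference from NSC was 0.39, -0.57, -0.57 and -0.68, beside 0.38, -0.08, 0.05 and -0.20 over all genes tested. With the block, Sox2 (-2.89, adjusted p = 0.0491) and Six3 (-2.13, adjusted p = 0.0444) were lower in GRP2/MP3, as were 2.91% of all genes tested. Maf was 2.64 higher in the microglia-rich pair than in the OPC-like pair (SE 0.59, adjusted p = 0.404). With the block this adjusted p was 0.0377, with 0.999% of genes tested called higher and 0.442% lower. Maf measured 71.6, 19.2, 13.8 and 15.1 RPKM in BNAP/GRP1 and 66.0, 83.6, 14.4 and 11.3 RPKM in GRP2/MP3, and in batch 3 it was 13.8 to 16.2 RPKM in every population. Its part in the Cryba4 and Crybb1 levels, through the MAF core or otherwise, was not tested.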

How the data were processed

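RNA of FACS-sorted periventricular cells (20 libraries, 4 per population) had been polyA-amplified and sequenced for 75 cycles. Per the study's methods and the submitters' notes, the authors trimmed reads with cutadapt 3.4, aligned them to GRCm38 with STAR 2.6.1 and used Salmon 1.9.0. The deposited table holds the authors' RPKM values; 26 further columns were empty. The gene lengths, read totals, annotation release and strand setting behind the RPKM are not given in the sources used here. The authors had left out experiments of low sample quality.

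The unit being RPKM, log2(RPKM + 1) was tested with limma 3.58.1 in R 4.3.3 (lmFit, eBayes with trend, a mean per population, no batch term, all 20 libraries) for genes of at least 1 RPKM in at least 4 libraries (27614 genes). p-values were adjusted by Benjamini-Hochberg over all these genes, with a threshold of 0.05. An SE is that of the fitted difference. Differences on this scale understate changes of low genes. The authors used DESeq2 1.26.0, which needs counts. On simulated data for PFMP against NSC with 27614 genes, 91 of 100 genes shifted by a log2 of 6 and 50 of 100 shifted by 3 were called, with 12 of 27414 unchanged ones. Each simulated library was drawn independently, without the deviations that real libraries of a batch share, so these rates need not hold for the data.

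Low values of a gene in different libraries stand in ratios of whole numbers, which gave relative depth and the reads behind 7 members (within 0.01 reads). A value of 0 allows up to 3 reads, for counting error only, and amplified reads are not independent molecules. Replicates are, per the study, independent experiments, each a sort of pooled litters, so no p-value measures the spread between animals. Without the block, the fit takes the libraries of a batch as unrelated, and differences between batches enter the spread its p-values rest on. The block compares libraries within their batch.

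The batch numbers in the labels pair the libraries: with population means removed, the median correlation within batches 1 to 4 was 0.337, 0.262, 0.769 and 0.581 (lowest 0.0341), and -0.204 between batches. Alternatives were the replicate block, a pseudocount of 0.1, no filter, a mean of at least 5 RPKM, median-of-ratios scaling, quantile normalization, and each library or batch left out. Members, gene lists and tests were chosen with earlier results of these data known. Named genes are the members, genes of the lists that passed a comparison or had the highest mean RPKM of their list, the 5 (Crygn, Cryba4, Crybb1) or 3 genes of highest Pearson's r with a member (those for Cryz are not reported here), and the nearest protein-coding genes of members whose promoter is shown. The other lens crystallins, Crybg3, Cryzl1 and Hspb2, the marker genes and Maf, Trem2, C1qa and the like were named after their values were seen. Positions are from GENCODE vM21, promoters from RefSeq. Python 3.11.15 with matplotlib 3.10.9 drew the figures.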

Additional observations from a re-analysis of the deposited data

Results flagged for a closer look

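Each of the 40 groups of 4 libraries (8 genes in 5 populations) was examined for a library far from the other 3 on the RPKM scale, by Dixon's critical value for 4 values. For normally distributed values this marks about 1 in 20 groups. RPKM are skewed, and a group with 3 values at 0 is marked by any other value above 0. That rate therefore does not hold here, and the 8 groups marked are a description only. Batch 4 held 6 of them as the highest value: Crygn in BNAP/GRP1 4 (129 RPKM), Crygs in BNAP/GRP1 4 (12.8 RPKM), Crygs in PFMP 4 (0.0244 RPKM, a single read), Cryab in GRP2/MP3 4 (135 RPKM), Cryab in GRP3 4 (38.8 RPKM) and Crym in GRP2/MP3 4 (31.3 RPKM). The others were Cryba4 in GRP3 2, the lowest at 0 RPKM beside 1.63 to 1.96 RPKM, and Cryl1 in NSC 3, the highest at 15.3 RPKM beside 1.09 to 3.26 RPKM.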

How the results depend on the processing

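For the 5 members tested throughout, 844 of 894 values under the alternatives kept direction and side of the threshold, 43 changed sign and 7 passed the threshold, all 7 for Crym. The replicate block changed no other call of these 5 members. The number of genes called in BNAP/GRP1, GRP2/MP3, GRP3 and PFMP against NSC (210, 308, 290 and 316) became 576, 851, 719 and 771 with the replicate block, which pairs the libraries by batch, and the count between the pairs (0) became 398. With a pseudocount of 0.1 the first 3 counts were 75, 174 and 156, and with quantile normalization those of BNAP/GRP1 and GRP3 were 441 and 454. With libraries or batches left out, the counts ranged from 16 (without batch 2) to 437 (without BNAP/GRP1 4) in BNAP/GRP1. In the same way they ranged from 29 to 560 in GRP2/MP3, from 44 to 516 in GRP3 and from 51 to 569 in PFMP, lowest without batch 2 and highest without NSC 3. Between the pairs they ranged from 0 to 536 and among the 4 progenitors from 0 to 2, highest without batch 3. The cause was not tested. Differences that changed sign were small: Cryz in GRP2/MP3 was 0.063 after median-of-ratios scaling and 0.20 after quantile normalization, which also moved Cryab to 0.067 in GRP2/MP3 and 0.058 in PFMP. With libraries or batches left out, Cryz ranged from -0.73 to 0.50 in BNAP/GRP1, from -0.62 to 0.69 in GRP2/MP3, from -0.73 to 0.50 in GRP3, from -0.90 to 0.46 in PFMP and from -0.18 to 0.44 between the pairs. Cryab ranged from -1.44 to 0.44 in GRP2/MP3 and from -0.93 to 0.59 in PFMP, and Crygs from -0.42 to 0.84 in BNAP/GRP1, from -0.19 to 0.41 in GRP2/MP3 and from -0.38 to 0.049 in GRP3. Between the pairs, Crym ranged from -0.20 to 0.67 and Crygn from -0.017 to 1.59. Depth limits Crygs most, which rests on 105 reads in all libraries.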
